A study of Rattus norvegicus with 18 samples.

Results

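The amacrine and horizontal cell genes are 10 rat genes chosen by name: Gad1, Gad2, Slc6a9, Tfap2a, Tfap2b, Th, Chat, Calb1, Lhx1 and Onecut1. All 10 were found among the 32285 genes of the retina table and among the 32552 genes of the RPE/choroid table. Expression was measured by bulk RNA-seq in 18 libraries from wild-type female Fischer344 rats, 9 of neural retina and 9 of retinal pigment epithelium with choroid (RPE/choroid). Each tissue had 3 libraries of untreated young rats (4 months of age), 3 of untreated aged rats (24 months) and 3 of aged rats (24 months) given 8-aminoguanine (8-AG), an endogenous purine, from 22 months on at 5 mg/kg/day in the drinking water for 8 weeks. The aged rats without 8-AG are the controls of the treatment. The molecule field of the labels reads total RNA for the 3 retina 8-AG libraries and polyA RNA for the other 15, so that this difference and the treatment cannot be told apart in retina if the field is right. In RPE/choroid, young libraries 1 and 2 share a number in the labels, as do aged libraries 1 and 2. Whether these are eyes of one rat is not given there, and where libraries are not separate animals, the p-values measure the spread between libraries only.

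Amacrine and horizontal cells are the inhibitory interneurons of the inner nuclear layer of the retina. Horizontal cells feed back onto photoreceptors in the outer plexiform layer, while amacrine cells act on bipolar cells, ganglion cells and each other in the inner plexiform layer. Most amacrine cells release either GABA or glycine, and some types release another transmitter such as acetylcholine or dopamine. In bulk RNA, fewer cells of a type and less RNA per cell cannot be told apart. Levels are given below as CPM, read counts brought to a common library size, after TMM scaling over the 9 libraries of a tissue. Transcript lengths were not used, so levels are compared between libraries and never between genes, and the tissues, which were counted separately, are not compared in level.

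Calls of changed genes use an adjusted p under 0.05 (edgeR quasi-likelihood test, Benjamini-Hochberg over all genes tested), and fold changes are log2 with their standard errors (SE). Some facts of the libraries touch the results below. The retina libraries held 12283458 to 15644346 counts and the RPE/choroid libraries 28573828 to 48203050. The summed level of 15 lens markers in retina was 3110.2, 6991 and 176 CPM in the young libraries, 24.6, 17.8 and 19.3 CPM in the aged and 1900.5, 20.7 and 24.2 CPM in the 8-AG libraries. The summed level of 13 rod markers in retina was 58981, 54111 and 57958 CPM in the young libraries, 32541, 33148 and 36897 CPM in the aged and 34170.1, 40552 and 44441 CPM in the 8-AG libraries. The part of either in the results was not tested beyond the values given below with the 3 libraries of the highest lens level left out.

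The upstream sequences of Th, Gad1 and Gad2 are shown because the results below turn on these genes. They are RefSeq sequence of build GRCr8, taken from the 250 bases before the listed start site and cut where the annotated gene begins, and are written 5′ to 3′ on the gene's strand. Capitals mark a match to the cyclic AMP response element (TGACGTCA, which reads the same on both strands) or to the TATA box (TATAAA, either strand), which do not overlap each other.
Th (chr1:207508277-207508468, minus strand): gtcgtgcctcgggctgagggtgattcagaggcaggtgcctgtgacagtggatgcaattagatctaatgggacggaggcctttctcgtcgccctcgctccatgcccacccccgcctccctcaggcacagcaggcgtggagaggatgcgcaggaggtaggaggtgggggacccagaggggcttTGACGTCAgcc
Gad1 (chr3:75777202-75777259, plus strand): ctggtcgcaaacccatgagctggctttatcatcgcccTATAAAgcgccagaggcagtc
Gad2 (chr17:89671468-89671717, plus strand): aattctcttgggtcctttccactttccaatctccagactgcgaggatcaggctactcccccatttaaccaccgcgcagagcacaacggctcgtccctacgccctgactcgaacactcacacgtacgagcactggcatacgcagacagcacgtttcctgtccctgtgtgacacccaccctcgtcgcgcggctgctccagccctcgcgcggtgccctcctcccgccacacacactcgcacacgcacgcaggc

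The Th sequence holds TGACGTCA, whose first base lies 11 bases before the annotated gene. The Gad1 sequence holds TATAAA, 21 bases before the gene, and the Gad2 sequence held neither. Of 33469 rat promoter windows of 250 bases, 1.59% hold TGACGTCA and 12.9% hold TATAAA. Windows were at hand for 6 of the 10 genes, among which TGACGTCA was found in Th alone and TATAAA in Gad1 alone. A match describes the letters and does not show that a factor binds there.

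**Figure D1:**
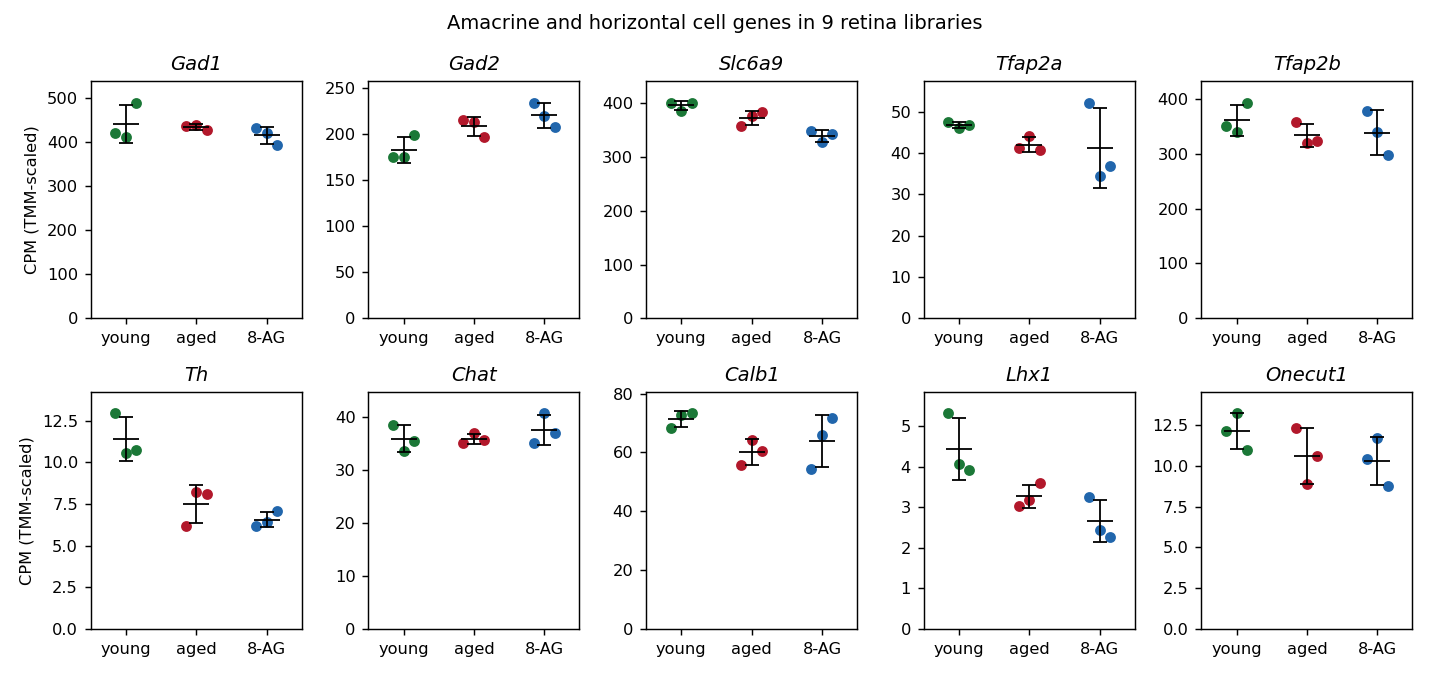
Level of each of the 10 genes in the 9 retina libraries, in TMM-scaled CPM on axes that start at 0, with 1 point per library and the mean and SD of 3 libraries in black. Th sits at 10.5 to 12.9 CPM in the young libraries and at 6.16 to 8.22 CPM in the aged and 8-AG libraries, while Chat lies between 33.6 and 40.7 CPM in all groups.

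The question of the first comparison is what differs between aged and young retina. The clearest difference among the 10 genes was in Th, which encodes tyrosine hydroxylase, the rate-limiting enzyme of dopamine synthesis and a marker of the rare dopaminergic amacrine cells. Th was measured at 12.9, 10.5 and 10.7 CPM in the young libraries, 6.16, 8.22 and 8.08 CPM in the aged libraries and 6.17, 6.44 and 7.08 CPM in the 8-AG libraries. All 3 young libraries lay above all aged and all 8-AG libraries. The young mean was 11.4 ± 1.33 CPM (SD, n = 3) and the aged mean 7.49 ± 1.152 CPM (SD, n = 3), a log2 fold change of -0.60 (SE 0.152, adjusted p = 0.0262) with a 95% interval of -0.94 to -0.26, which is 1.52-fold lower. The Th counts behind these values were 79 to 168 per library. Without the 3 libraries of the highest lens level (young 1, young 2 and 8-AG 1, called lens-rich below), which leaves 1 young library whose spread is taken from the other groups, the log2 fold change was -0.52 (adjusted p = 0.209).

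Calb1, which encodes the calcium-binding protein calbindin and marks horizontal cells and some amacrine cells, was the other gene of the set that fell. Calb1 was measured at 68.4, 72.6 and 73.3 CPM in the young libraries, 55.7, 64.4 and 60.4 CPM in the aged libraries and 54.3, 65.7 and 71.7 CPM in the 8-AG libraries. The aged libraries lay below the young ones, and the 8-AG libraries spanned both groups. Its log2 fold change, aged against young, was -0.25 (SE 0.0679, adjusted p = 0.0368), or 1.19-fold lower. Without the lens-rich libraries it was -0.29 (adjusted p = 0.178). Thus 2 of the 10 genes fell and none rose, where 7.26% of the 14588 genes tested fell and 7.29% rose. By the study's rule (fold change over 1.5 and unadjusted P under 0.05), Th alone fell, where that rule calls 2.39% of genes lower. The median log2 fold change of the 10 was -0.13, beside 0.0019 for all genes tested. Scaling by library totals alone moved the median of all genes to 0.12 and the calls from 1063 higher and 1059 lower to 2344 and 542. Under it Th was at -0.49 (adjusted p = 0.0495) and Calb1 at -0.13 (adjusted p = 0.190).

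Neither call held in every fit with fewer libraries. Leaving out 1 library at a time gave Th log2 fold changes of -0.67 to -0.49, and the adjusted p rose above 0.05 in 4 of 6 cases, up to 0.107 without young library 1. For Calb1 the values ran from -0.30 to -0.20, and the call held only without aged library 2.

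**Figure D2:**
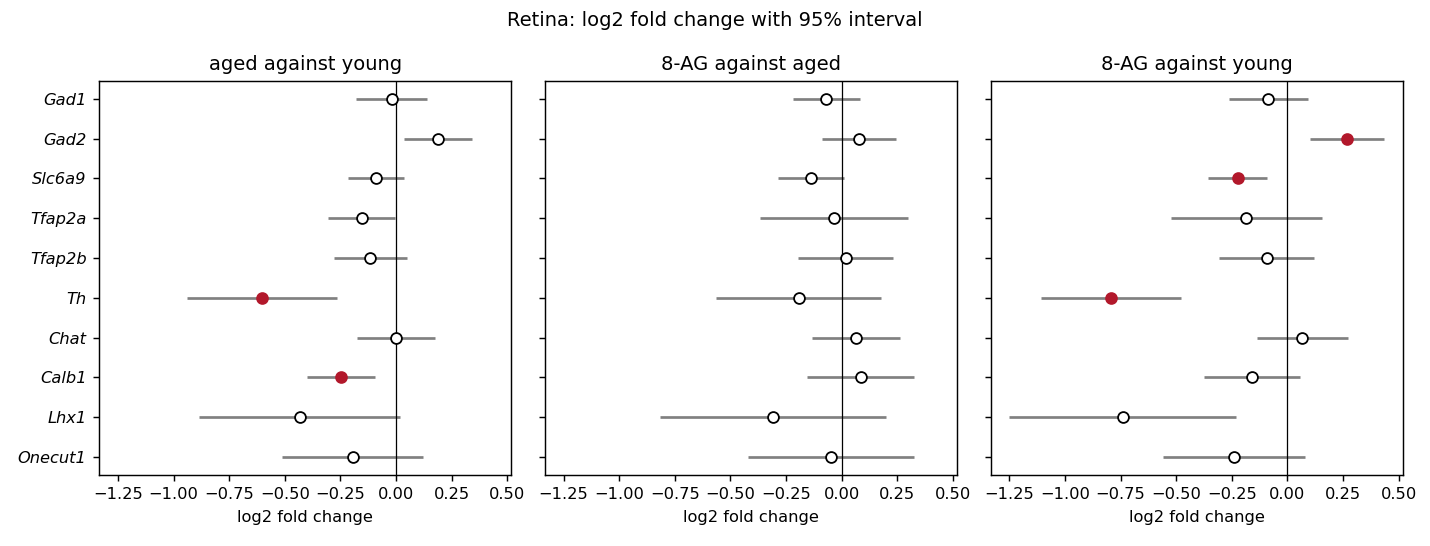
log2 fold change of the 10 genes (x axis) in the 3 retina comparisons, with 95% intervals as bars. Filled points passed an adjusted p of 0.05 in edgeR, which holds for Th and Calb1 in aged against young, for no gene in 8-AG against aged, and for Th, Gad2 and Slc6a9 in 8-AG against young.

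Neither of the GABA synthesis genes nor the glycine transporter gene was called in this comparison. Gad1 and Gad2 encode the glutamate decarboxylases GAD67 and GAD65, which make GABA. Gad1 was measured at 420.1, 411 and 489.8 CPM in the young libraries, 436, 439.7 and 427 CPM in the aged libraries and 432, 420.0 and 393 CPM in the 8-AG libraries. These groups overlapped, and the log2 fold change of aged against young was -0.02 (SE 0.0712, adjusted p = 0.887). Gad2 was measured at 175, 175 and 199 CPM in the young libraries, 216, 213 and 197 CPM in the aged libraries and 234, 220.1 and 207 CPM in the 8-AG libraries. Young libraries 1 and 2 were the lowest, and young library 3 lay within the aged range. The log2 fold change of Gad2, aged against young, was 0.19 (SE 0.0681, adjusted p = 0.0971), which did not pass the test. It was called with library totals alone, at 0.30 (adjusted p = 0.0136), and with upper-quartile factors, at 0.23 (adjusted p = 0.0454), in 2 of 13 alternatives. Over all 13, the log2 fold change of Gad2 ran from 0.064 to 0.30.

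Slc6a9 encodes the glycine transporter GLYT1, which glycinergic amacrine cells carry. Slc6a9 was measured at 402, 386 and 401 CPM in the young libraries, 358, 376 and 384 CPM in the aged libraries and 348, 328 and 343 CPM in the 8-AG libraries. The ranges of the 3 groups did not overlap, with young highest and 8-AG lowest. The log2 fold change of aged against young was -0.09 (SE 0.0564, adjusted p = 0.335), so that this step did not pass the test. Scaled by library totals alone, the fold change turned to 0.03 (adjusted p = 0.756) and the young and aged libraries overlapped.

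Of the transcription factors, Tfap2a and Tfap2b encode AP-2 factors of amacrine and horizontal cell development. Tfap2a was measured at 47.4, 46.1 and 46.7 CPM in the young libraries, 41.2, 44.1 and 40.8 CPM in the aged libraries and 52.2, 34.5 and 36.7 CPM in the 8-AG libraries. The aged libraries lay below the young ones, while 8-AG library 1 was the highest and 8-AG library 2 the lowest of all 9. Its log2 fold change, aged against young, was -0.15 (SE 0.0676, adjusted p = 0.164). Tfap2b was measured at 351, 339 and 394 CPM in the young libraries, 359, 319.8 and 323 CPM in the aged libraries and 379, 340.0 and 298 CPM in the 8-AG libraries, with overlapping groups and a log2 fold change of -0.12 (SE 0.0732, adjusted p = 0.335). Lhx1 and Onecut1 encode transcription factors of horizontal cells. Lhx1 was measured at 5.31, 4.06 and 3.92 CPM in the young libraries, 3.04, 3.19 and 3.59 CPM in the aged libraries and 3.24, 2.44 and 2.27 CPM in the 8-AG libraries, on 30 to 69 counts per library. The young libraries lay above the aged ones, and the log2 fold change was -0.43 (SE 0.203, adjusted p = 0.189). Onecut1 was measured at 12.2, 13.2 and 11.01 CPM in the young libraries, 12.3, 8.92 and 10.6 CPM in the aged libraries and 10.4, 11.7 and 8.75 CPM in the 8-AG libraries. Its groups overlapped, with a log2 fold change of -0.20 (SE 0.142, adjusted p = 0.403).

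Chat, which encodes the choline acetyltransferase of starburst amacrine cells, was measured at 38.6, 33.6 and 35.6 CPM in the young libraries, 35.1, 37.0 and 35.6 CPM in the aged libraries and 35.2, 40.7 and 37.0 CPM in the 8-AG libraries. The groups overlapped and their means lay within the spread of the libraries. The 95% interval of the log2 fold change, aged against young, ran from -0.17 to 0.17. In all, 5 of the 10 genes (Slc6a9, Tfap2a, Th, Calb1 and Lhx1) had aged libraries wholly below the young ones, where 17.2% of the genes tested did. None had them wholly above, while the groups of 35.3% of the genes tested did not overlap in one direction or the other. Scaled by library totals alone, only Th and Lhx1 of the 10 had aged libraries wholly below the young ones, where 8.05% of genes did, and Gad2 had them wholly above, where 33.3% did.

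The next comparison asks what 8-AG changed in aged retina. None of the 10 genes was called by edgeR, which called 0.0205% of 14631 genes, and every adjusted p was 0.996. None of them had an unadjusted p under 0.05, against 3.67% of genes, and DESeq2 called none of the 10 either. The log2 fold change of Slc6a9 was -0.14 (SE 0.0659), with unadjusted p = 0.0626 in edgeR, and it was the only one of the 10 genes whose 8-AG libraries lay wholly on one side of the aged ones, below them, where 3.96% of genes did. The log2 fold change of Th was -0.19 (SE 0.165), with a 95% interval of -0.56 to 0.18. This interval does not reach a rise as large as the fall with age. That of Calb1 was 0.09 (SE 0.108), with an interval of -0.16 to 0.33, which includes a rise as large as the fall with age. The median over the 10 genes was -0.042, beside -0.0031 for all genes tested.

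Against young retina, 8-AG retina differed in 3 of the 10 genes. This comparison shares its young libraries with the first and its 8-AG libraries with the second, so the values are given side by side only. Th was at -0.79 (SE 0.141, adjusted p = 0.00555), which is 1.73-fold lower, and Slc6a9 at -0.22 (SE 0.0587, adjusted p = 0.0316). Gad2 rose, at 0.27 (SE 0.0741, adjusted p = 0.0384), a 1.205-fold higher level. Thus 1 gene rose and 2 fell, where 7.78% and 7.1% of 14542 genes did. Scaling by library totals alone moved the calls over all genes from 1131 higher and 1032 lower to 1511 and 606, and under it Th was at -0.73 (adjusted p = 0.00857), Gad2 at 0.34 (adjusted p = 0.0207) and Slc6a9 at -0.15 (adjusted p = 0.126). The study's rule named Th and also Lhx1, where it calls 2.08% of genes lower, and Lhx1 was at -0.74 (SE 0.229, adjusted p = 0.0571). Lhx1 passed in 4 of 13 alternatives, at an adjusted p of 0.0395 with all 3 groups in one edgeR fit, and, among the 6 fits with 1 library left out, only without 8-AG library 1, at -0.91 (adjusted p = 0.0311). Without that library Tfap2a also passed, at -0.39 (adjusted p = 0.00954). Calb1, which had fallen in aged against young retina, was at -0.16 (SE 0.0962, adjusted p = 0.309) here.

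Th kept its call with each library left out in turn, at -0.85 to -0.69. Gad2 lost it in 4 of 6 such fits, up to an adjusted p of 0.157 without young library 2, and Slc6a9 in 4 of 6, up to 0.128 without 8-AG library 2. Without the lens-rich libraries, Gad2 was at 0.10 (adjusted p = 0.653), Slc6a9 at -0.26 (adjusted p = 0.194) and Th at -0.67 (adjusted p = 0.154).

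Because Gad1 and Gad2 make the same product, their counts were also set against each other within each retina library, where differences in scaling cancel. This ratio was chosen after the levels were seen. It holds no correction for transcript length, so only its differences between libraries are of use. Gad2 counts divided by Gad1 counts came to 0.417, 0.426 and 0.407 in the young libraries, 0.495, 0.484 and 0.461 in the aged and 0.543, 0.524 and 0.527 in the 8-AG libraries. No library of one group reached the range of another. The means were 0.416 ± 0.00936, 0.480 ± 0.0173 and 0.531 ± 0.0100 (SD, n = 3), so that the ratio was 1.153 times as high in aged as in young retina and 1.11 times as high in 8-AG as in aged retina. Each comparison gave p = 0.1 in a two-sided exact permutation test, the smallest p that 3 against 3 libraries allow. For the levels of single genes, the groups did not overlap in 35.3% of genes in aged against young retina and in 8.78% in 8-AG against aged retina. The share among ratios of other gene pairs was not computed. In RPE/choroid the ratio was 0.315, 0.320 and 0.532 in the young libraries, 0.255, 0.317 and 0.325 in the aged and 0.308, 0.278 and 0.295 in the 8-AG libraries. There the 8-AG libraries lay wholly below the young ones, opposite to retina, at 0.755 times the young mean (p = 0.1 in the same exact permutation test), and the other groups overlapped. Without young library 3, whose ratio rests on 156 counts of Gad2, it was 0.926 times.

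**Figure D3:**
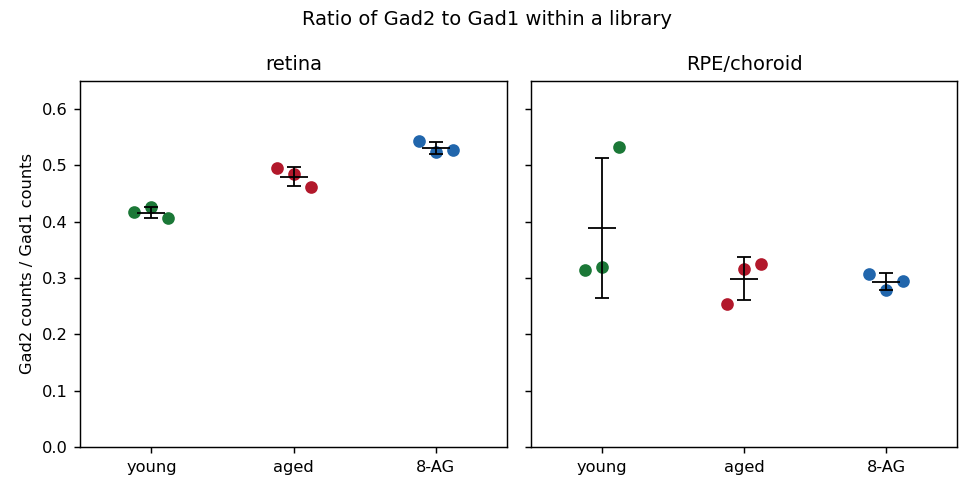
Gad2 counts divided by Gad1 counts in each library (y axis, from 0) for retina and RPE/choroid, with the mean and SD of 3 libraries in black. In retina the young libraries lie at 0.407 to 0.426, the aged at 0.461 to 0.495 and the 8-AG libraries at 0.524 to 0.543, while in RPE/choroid the young libraries lie at 0.315 to 0.532, above the 8-AG libraries at 0.278 to 0.308.

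The other genes of these cells were taken from 7 lists of transmitter, receptor and identity genes. Of 66 genes, 60 were tested in aged against young retina, where 1 rose and 4 fell, beside 7.29% and 7.26% of all genes tested. None of 5 genes of GABA and glycine handling was called by edgeR or DESeq2, and none had an unadjusted p under 0.05, where 29.2% of all genes tested did. Chosen for their mean CPM, which holds no correction for length and ranks no gene, Aldh5a1, the succinate semialdehyde dehydrogenase of GABA breakdown, was at 0.04 (SE 0.0524, adjusted p = 0.639) and the GABA transporter gene Slc6a11 at -0.12 (SE 0.0833, adjusted p = 0.390). None of 20 receptor genes was called by edgeR or DESeq2, and 2 had an unadjusted p under 0.05, beside 29.2% of all genes, which were the GABA-A subunit genes Gabra3 (adjusted p = 0.105) and Gabrb1 (adjusted p = 0.165), named after their values were seen. By the same choice, Gabbr1, a GABA-B receptor subunit gene, was at 0.03 (SE 0.0583, adjusted p = 0.811) and Gabrr1, which encodes a rho subunit known from bipolar cells, at -0.08 (SE 0.110, adjusted p = 0.667). Bipolar and ganglion cells carry such receptors too, so the list is not one of amacrine cells alone. Of 4 starburst genes, 3 had an unadjusted p under 0.05 in edgeR, beside 29.2% of all genes. Among them Megf10, a spacing receptor of starburst and horizontal cells that Müller glia also express, rose, from 103, 103 and 115 CPM to 165, 165 and 129 CPM, with a log2 fold change of 0.51 (SE 0.0994, adjusted p = 0.00971). The summed level of 9 Müller glia markers was 6278, 5905 and 6098 CPM in young and 5629, 5439 and 5596 CPM in aged libraries, and the part of Müller glia in the Megf10 values was not tested.

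Among 6 dopaminergic genes, Drd4, the D4 dopamine receptor, which photoreceptors express, fell from 47.98, 38.4 and 36.7 CPM in young to 21.2, 15.6 and 19.4 CPM in aged libraries. Its log2 fold change was -1.13 (SE 0.140, adjusted p = 0.00137), and without the lens-rich libraries -0.97 (adjusted p = 0.00682). The summed rod markers were also lower in all aged than in all young libraries, at the values given above. Within the young and within the aged group, the order of their sums did not match that of Drd4. The part of rods in the Drd4 values was not tested. Among 15 amacrine identity genes, the homeobox gene Meis2 fell, with a log2 fold change of -0.28 (SE 0.0610, adjusted p = 0.0143), as did Dab1, a reelin adaptor of AII amacrine cells, at -0.25 (SE 0.0694, adjusted p = 0.0401). Of 5 neuropeptide genes, Penk, which encodes proenkephalin, fell, at -0.35 (SE 0.0852, adjusted p = 0.0225). An unadjusted p under 0.05 in edgeR was found for 2 of the 6 dopaminergic, 2 of the 15 identity and 1 of the 5 neuropeptide genes, beside 29.2% of all genes. With 1 library left out at a time, Drd4 and Megf10 kept their calls in 6 of 6 fits, Meis2 in 3, Penk in 2 and Dab1 in 1. With library totals alone, Meis2 was at -0.16 (adjusted p = 0.0876), Penk at -0.23 (adjusted p = 0.0799) and Dab1 at -0.13 (adjusted p = 0.201).

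None of 5 horizontal cell identity genes tested was called by edgeR or DESeq2, and 1 had an unadjusted p under 0.05, beside 29.2% of all genes, which was Gja10, a gap junction gene chosen here after its value was seen, at -0.56 (SE 0.237, adjusted p = 0.148), and their median log2 fold change was -0.23, beside 0.0019 for all genes. Prox1, which bipolar and AII amacrine cells also express, was measured at 229.7, 239.7 and 211 CPM in the young libraries, 233, 154 and 192 CPM in the aged libraries and 219, 167 and 140.1 CPM in the 8-AG libraries, with a log2 fold change of -0.23 (SE 0.149, adjusted p = 0.355). The summed level of 10 bipolar markers was 1669, 1539 and 1652 CPM in the young, 1624, 1204 and 1442 CPM in the aged and 1364, 1274 and 1084 CPM in the 8-AG libraries. Its order matched that of Prox1 within the aged and within the 8-AG group, but not within the young group. The part of bipolar cells in the Prox1 values was not tested. Megf11 was at -0.05 (SE 0.117, adjusted p = 0.823).

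**Figure D4:**
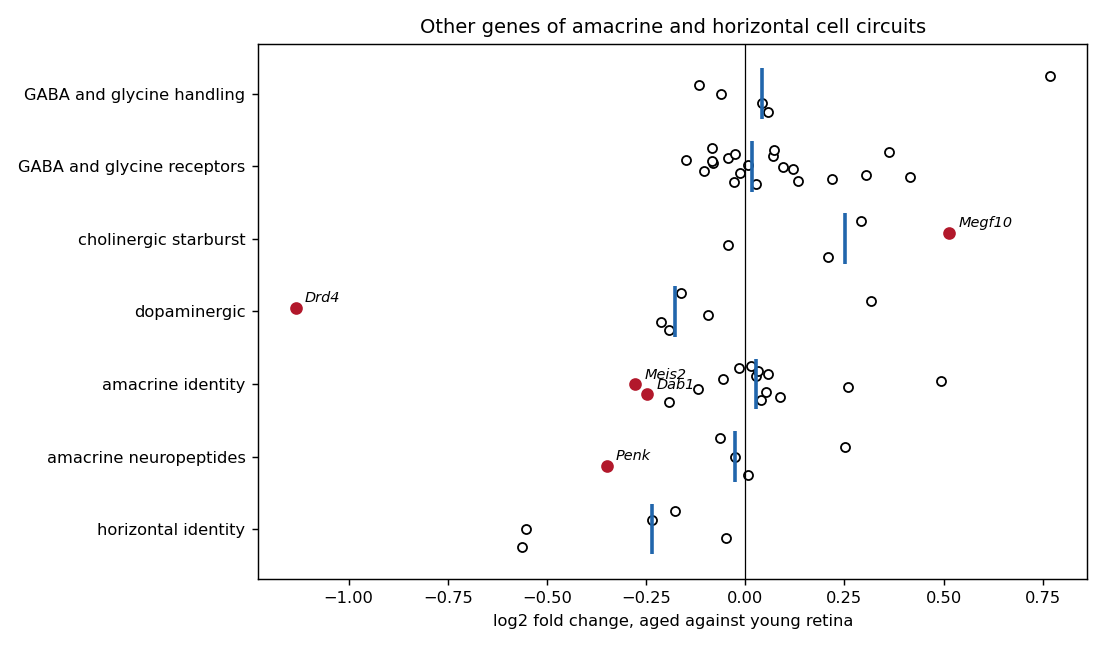
log2 fold change, aged against young retina (x axis), of the 60 other genes tested, by list. Filled and named points passed an adjusted p of 0.05, and blue bars are list medians, which run from -0.23 for horizontal identity to 0.25 for the starburst genes.

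In 8-AG against aged retina, none of the 60 genes tested was called by edgeR or DESeq2, and 4 had an unadjusted p under 0.05 (Drd4, Gabrg1, Gabrg3 and Glrb, named after their values were seen), where 3.67% of all genes did. Drd4 was at 0.54 (SE 0.127, adjusted p = 0.817), with unadjusted p = 0.00183 in edgeR, and its 8-AG libraries (29.6, 26.0 and 26.4 CPM) lay between the aged and the young ones. In 8-AG against young retina, 2 of the 60 rose and 4 fell, beside 7.78% and 7.1% of all genes tested. An unadjusted p under 0.05 was found for 16 of the 60, among them 8 of the 20 receptor genes, beside 29.2% of all genes. DESeq2 called 7 of the 60, among them 1 horizontal identity gene, Prox1, which edgeR left uncalled at -0.37 (SE 0.164, adjusted p = 0.193). Gabrg1, a GABA-A subunit gene, rose, at 0.49 (SE 0.143, adjusted p = 0.0471), as did Tac1, which encodes substance P, at 0.37 (SE 0.101, adjusted p = 0.0371). Slc6a11 fell, at -0.28 (SE 0.0807, adjusted p = 0.0428), as did Drd4, at -0.59 (SE 0.116, adjusted p = 0.00941), Dab1, at -0.33 (SE 0.0913, adjusted p = 0.0390), and Penk, at -0.37 (SE 0.0851, adjusted p = 0.0180). With 1 library left out at a time, the call of Gabrg1 held in 0 of 6 fits (adjusted p from 0.0515 to 0.155), that of Dab1 in 1, those of Tac1 and Slc6a11 in 2 each, that of Penk in 3 and that of Drd4 in 5. Without the lens-rich libraries, Gabrg1 was at 0.38, Tac1 at 0.23, Slc6a11 at -0.42, Drd4 at -0.49, Dab1 at -0.47 and Penk at -0.47. Each kept its direction, and the changes of Slc6a11, Dab1 and Penk were larger. With 1 young library left, this fit cannot decide whether the calls hold. In aged against young retina, the same fit gave Megf10 0.40 (adjusted p = 0.379), Meis2 -0.34 (adjusted p = 0.0577), Dab1 -0.32 (adjusted p = 0.160) and Penk -0.42 (adjusted p = 0.0838), all in the direction of their calls.

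The RPE/choroid lies outside the neural retina and has no amacrine or horizontal cells of its own. Counts of the 10 genes were nevertheless found in all 9 of its libraries, with large differences between libraries of the same group. Gad1 was measured at 115, 113 and 6.12 CPM in the young libraries, 116, 7.07 and 305 CPM in the aged and 351, 8.89 and 12.6 CPM in the 8-AG libraries, a 57.4-fold range. Young libraries 1 and 2, aged libraries 1 and 3 and 8-AG library 1 were high, and the others were low. The summed level of 13 rod markers was 16659, 18811 and 1976 CPM in the young libraries, 10963, 672 and 15879 CPM in the aged and 53593, 887 and 877 CPM in the 8-AG libraries, high in the same 5 libraries. The sum of 8 skeletal muscle markers ran from 21.7 to 5409 CPM in young, 30.4 to 4129 CPM in aged and 52.4 to 59892 CPM in 8-AG libraries. The part of muscle RNA in the results was not tested.

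Th was measured at 7.47, 5.15 and 0.543 CPM in the young, 20.1, 0.206 and 18.2 CPM in the aged and 29.9, 0.250 and 0.523 CPM in the 8-AG libraries. Again the same 5 libraries were high. Gad2 ranged over 2.24 to 108 CPM and Chat over 0.397 to 19.8 CPM, and Onecut1 and Lhx1 reached at most 2.77 and 2.11 CPM, with as little as 1 count in a library. Tfap2b was measured at 32.5, 28.7 and 24.96 CPM in the young, 40.1, 22.8 and 65.6 CPM in the aged and 52.4, 20.6 and 46.5 CPM in the 8-AG libraries, so that the same 5 libraries and 8-AG library 3 were higher than the other 3, over a narrower range than Gad1 or Th. Tfap2a ranged over 0.371 to 1.11 CPM, on 15 to 53 counts per library, and was highest in young library 3, where Gad1 was lowest.

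Calb1 was measured at 24.4, 27.3 and 1.69 CPM in the young, 39.5, 1.27 and 71.5 CPM in the aged and 84.3, 2.22 and 31.5 CPM in the 8-AG libraries. Slc6a9 was measured at 8.90, 6.50 and 0.773 CPM in the young, 8.32, 1.149 and 13.97 CPM in the aged and 19.4, 2.36 and 11.9 CPM in the 8-AG libraries. Both were high in 8-AG library 3, where Gad1, Th and the rod markers were low. That library had the highest summed level of Müller glia markers, with 9614, 6433 and 13518 CPM in the 3 8-AG libraries, and of RPE markers, with 5454, 15701 and 18730.2 CPM. The Müller glia list holds Rlbp1, which the study names among RPE-specific mRNAs, so in this tissue its sum does not stand for Müller glia alone. The part of retinal RNA in these levels was not tested beyond a fit with the rod level as a covariate, in which none of the 10 genes was called.

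**Figure D5:**
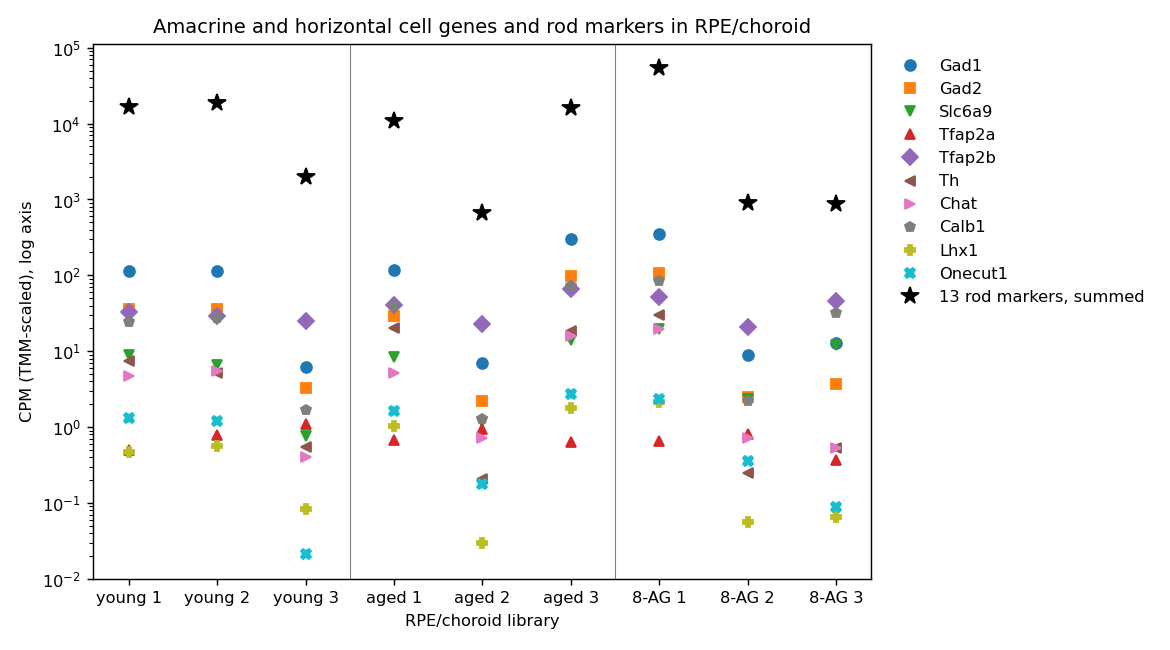
Level of the 10 genes and the summed level of 13 rod markers in each RPE/choroid library, in TMM-scaled CPM on a log axis. Gad1, Gad2, Th and Chat are high in young 1 and 2, aged 1 and 3 and 8-AG 1, as the rod markers are, while Tfap2a stays between 0.371 and 1.11 CPM.

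No RPE/choroid comparison called any of the 10 genes by edgeR, which called 0.0% of 16047, 16257 and 16215 genes in aged against young, 8-AG against aged and 8-AG against young. Unadjusted p-values under 0.05 were found for 2.13%, 1.69% and 2.1% of genes, and for none of the 10. DESeq2 called 29, 81 and 98 genes, none of them among the 10. The intervals of Gad1 and Th were wide. The log2 fold change of Gad1, aged against young, had a 95% interval of -2.59 to 4.31, and that of Th -2.10 to 5.19. For these genes, changes of the size seen in retina were not detectable here. Tfap2a and Tfap2b varied less between the libraries, over 2.99-fold and 3.19-fold ranges. In a test of whether the aging change differed between tissues, edgeR called 0.161% of 16792 genes and none of the 10. For Th the difference, RPE/choroid minus retina, was 2.14 (SE 1.60, adjusted p = 0.888).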

How the data were processed

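Bulk RNA-seq libraries of retina (9) and RPE/choroid (9) were grouped by the sample labels. The retina values are expected counts per gene (RSEM) as the authors deposited them, of which 11.5% were not whole, and they were rounded here. For RPE/choroid, the deposited values are raw counts, also by gene. The authors' TMM-normalized retina signal table, as deposited, was used for gene symbols and as an alternative. The submitters' processing notes name RSEM 1.2.15, Bowtie2 2.1.0, edgeR and build Rnor_6.0, with no role or order. The deposited tables of the authors' own fold changes and p-values were not used, apart from their symbols. One of the symbols listed was left out because the tables pair it with different genes. Some listed genes are not reported here and were left out of the list counts, though not of the fits.

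Each comparison used its own 6 libraries and edgeR 4.0.16 under R 4.3.3, with default filtering (filterByExpr, TMM, glmQLFit with robust=TRUE, glmQLFTest), after tests on simulated counts. A call is an adjusted p under 0.05 over all genes tested. An interaction term tested whether aging changes differed between the tissues. All members were named. Of each other list, genes past the threshold were named (at most 3 each way), or else up to 2 of the highest mean CPM. Drd4 in 8-AG against aged retina was chosen after its values were seen. Members and lists were chosen with earlier results of these data known. Alternatives used DESeq2 1.42.0 and limma 3.58.1, other scalings, filters and libraries. Total counts of 12283458 to 48203050 per library limit the precision to counting error for genes of few counts, and the 3 libraries per group limit the rest. Reads were not analysed here.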

Additional observations from a re-analysis of the deposited data

How the results depend on the processing

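Th, Calb1, Gad2 and Slc6a9 kept the direction of their calls in all alternatives run. Of the 190 values of the 10 genes in each retina comparison, 17 in aged against young lost a call and 2 (both Gad2) gained one, and in 8-AG against young 16 lost a call and 6 (5 of Lhx1 and 1 of Tfap2a) gained one. Signs of uncalled values changed in 14 and 11 of the 190 in aged against young and 8-AG against aged, and in 8, 32 and 14 of the 167 values of the RPE/choroid comparisons. In aged against young retina, the number of the 10 genes called went from 2 to 1 with DESeq2 and with all 3 groups in one fit, and to 0 without the 3 lens-rich libraries, a setting chosen after seeing the data. Leaving out each library in turn gave 0 to 2. In 8-AG against young retina, the number went from 3 to 0 without the lens-rich libraries, and leaving out each library gave 1 to 4. Over all genes, leaving out each library gave 1245 to 2312 calls against 2122 in aged against young retina, 0 to 3 against 3 in 8-AG against aged retina, and 1026 to 2451 against 2163 in 8-AG against young retina. Without the lens-rich libraries the counts of the first and last were 966 and 558. For 8-AG against aged retina, DESeq2 called 18 genes, an unfiltered fit 10, a minimum of 10 counts per library 0, robust=FALSE 0 and limma with a pseudocount of 0.1 called 1. In RPE/choroid, where edgeR called 0, DESeq2 called 29 genes in aged against young, 81 in 8-AG against aged and 98 in 8-AG against young, and the rod covariate gave 1 in the first. Summing the libraries that share a label number gave 0 in each comparison. The interaction called 27 genes, 4 with RLE size factors, 307 with DESeq2 and 0 to 49 leaving out each library. With library totals alone, chosen after seeing the data for this count, 2 in place of 5 of the 10 genes had aged libraries wholly below the young ones in retina, and 1 in place of 0 wholly above. The causes were not tested.

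The labels give the groups the same replicate numbers, but same-numbered retina libraries did not deviate together in every pair (correlations of -0.25 to 0.22), so the numbers were not taken as a pairing. With the replicate block, 0 of the 10 genes were called in aged against young retina, with Th at -0.60 (adjusted p = 0.0578) and Calb1 at -0.25 (adjusted p = 0.0531), and 1 in 8-AG against young retina, which was Th, while Gad2 (adjusted p = 0.0631) and Slc6a9 (adjusted p = 0.0600) lost their calls. Of the other genes named, Dab1 (adjusted p = 0.0550) lost its call in aged against young retina and Gabrg1 (adjusted p = 0.0774) in 8-AG against young retina, and the block changed no other call of a named gene. All genes called under the block came to 0 in 8-AG against aged retina.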
